A study of Homo sapiens with 6 samples.

Results

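The mRNAs of 10 major chaperones of the HSP90, HSP70 and HSP60 families were followed in native ORC1 RIP-seq of HCT116 nuclei. RIP-seq sequences the RNA that comes down with a protein in an immunoprecipitation (IP), and ORC1 is the subunit of the origin recognition complex that the study examined for RNA binding. The members were the rows of the gene table whose symbol was HSP90AA1, HSP90AB1, HSP90B1, HSPA4, HSPA5, HSPA8, HSPA9, HSPD1, HSPE1 or HSPH1 (10 of 23013 genes), taken by name. HCT116 is an established human colorectal carcinoma line. The cells were untreated and dividing, and all libraries shared this state. The input group was 3 libraries of nuclear RNA without antibody, and the ORC1 IP group was 3 libraries from an anti-ORC1 antibody, with the labels giving each input and IP a RIP replicate number. The study also used a control IgG and reports no detectable RNA from it. No library of it was analysed here, so RNA held by the antibody or the beads alone was neither measured nor taken off these values. The study describes its ORC1 RIP as independent triplicate experiments without saying whether each began from its own culture, so p-values measure the spread between these experiments.

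Chaperones bind unfolded or partly folded proteins and use ATP to help them fold. HSP70 proteins take up clients first with J-domain proteins (HSP40), nucleotide exchange factors then release them, and many kinases and receptors pass on to HSP90. HSP60 forms a closed chamber with its lid HSP10 inside mitochondria. Several of these genes answer to heat shock factor HSF1, and the chaperones of the endoplasmic reticulum (ER) to the unfolded protein response. Their mRNAs are among the more abundant in cultured tumour cells.

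The study examined tandem GAA in full-length RNAs bound by ORC1. From crosslink positions and gel shifts it judged that ORC1 does not bind RNA through this sequence. Here the coding stretch of 60 bases with the most GAA triplets was read for each member from GENCODE v44 transcripts. Triplets were counted in any frame and need not be in tandem, so this measure differs from that of the study. The stretches of the 3 HSP90 mRNAs, of HSPA9 and of HSPE1 are shown because they span the range among the members, from 11 to 3 triplets. GAA is in capitals, and all run 5′ to 3′ along the mRNA.
HSP90B1: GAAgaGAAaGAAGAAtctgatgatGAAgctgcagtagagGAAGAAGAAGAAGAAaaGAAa
HSP90AA1: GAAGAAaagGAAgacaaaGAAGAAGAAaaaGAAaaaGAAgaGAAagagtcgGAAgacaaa
HSP90AB1: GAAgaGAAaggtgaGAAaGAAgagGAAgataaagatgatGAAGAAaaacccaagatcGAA
HSPA9: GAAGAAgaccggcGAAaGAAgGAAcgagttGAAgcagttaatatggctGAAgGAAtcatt
HSPE1: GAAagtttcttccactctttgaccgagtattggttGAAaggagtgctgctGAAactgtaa
On GRCh38, the HSP90B1 stretch lies in coding exon sequence at chr12:103938385-103938444 (plus strand, exon 7), that of HSP90AA1 at chr14:102084897-102084956 (minus strand, exon 5) and that of HSP90AB1 at chr6:44250336-44250395 (plus strand, exon 6). The HSPA9 stretch is split by an intron between exons 14 and 15 (chr5:138556828-138557422, minus strand), and the HSPE1 stretch lies in exon 2 (chr2:197501090-197501149, plus strand). In the 3 HSP90 mRNAs the stretch begins at a codon boundary in the part that encodes the acidic charged linker, where in-frame GAA codes for glutamate.

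The HSP90B1 stretch held 11 GAA triplets, a number reached by 0.359% of the 12537 tested protein-coding genes. HSP90AA1 held 10 (1.01% of genes had as many), and HSP90AB1 and HSPA9 each held 8 (7.21%). HSPA5 and HSPA8 held 7 (16.4%), and HSPA4, HSPD1 and HSPH1 held 6 (34.1%). With 3 triplets, HSPE1 was at the other end, since 92.1% of genes had at least as many, and the median gene had 5. The longest unbroken GAA run was 5 triplets in HSP90AA1 and HSP90B1, 3 in HSP90AB1 and 1 in HSPE1.

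Reads on genes numbered 13703033 to 17248924 in inputs and 25134156 to 36008733 in ORC1 IPs. All 10 members passed the filter of a mean of at least 10 normalised counts (reads divided by a size factor per library), as did 16513 genes in all. ORC1 IP 2 stood apart from ORC1 IPs 1 and 3: transcripts of the mitochondrial genome held 5.995% of its reads (95% exact Clopper-Pearson interval 5.986 to 6.004), against 0.617% (0.614 to 0.620) and 0.257% (0.255 to 0.259) in the other two, and 3.28%, 1.49% and 2.65% in inputs 1 to 3. These intervals cover counting error only. The nuclear RNA MALAT1 had 116695 normalised counts in ORC1 IP 2, 27277 and 10644 in ORC1 IPs 1 and 3 and 13703 to 35633 in inputs, and NEAT1 ranged from 1462 to 4229. Of 6 epithelial markers, EPCAM, KRT8, KRT18 and CDH1 were among the genes analysed, at 560 to 82363 normalised counts in every library. Of 6 markers of other cell types, ALB (0 to 6.97) and COL1A1 (161 to 787) were. Results are therefore given with and without ORC1 IP 2, and the part that the composition of this library has in them was not tested.

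Most chaperone mRNAs were high in ORC1 IPs 1 and 3 and low in ORC1 IP 2. By normalised counts, in 9 of 10 members, all but HSPE1, both ORC1 IP 1 and ORC1 IP 3 lay above the 3 inputs, a pattern held by 26.0% of all genes tested. In 7 of these 9, ORC1 IP 2 lay below the 3 inputs (7.41% of all genes), the exceptions being HSP90B1 and HSPH1. These counts depend on the scaling: as a percent of all reads on genes, ORC1 IPs 1 and 3 were above the 3 inputs in 7 members, all but HSPA4, HSPA8 and HSPE1 (12.2% of all genes), and ORC1 IP 2 was also below the inputs in 4 of these, HSP90AB1, HSPA5, HSPA9 and HSPD1 (1.85%). With all 6 libraries, none of the 10 members was called higher and HSPE1 was called lower (limma, adjusted p under 0.05, Benjamini-Hochberg over 16513 genes). Of all genes, 2.28% were called higher and 1.42% lower, 3.69% in all. At an unadjusted p under 0.05 there were 2 members, HSPE1 and HSP90B1, beside 21.6% of all genes. The median log2 difference of the 10 members was 0.60, beside 0.01 over all genes tested, and the median of the members against the mean of the inputs was 1.73, -0.99 and 1.51 in ORC1 IPs 1, 2 and 3. Without ORC1 IP 2, 8 members were called higher and 1 lower, at background shares of 11.9% and 6.38% (18.3% in all), and the median was 1.46. Without ORC1 IP 1 or ORC1 IP 3 no member was called, beside 315 and 47 of all 16513 genes, and the median was 0.12 and 0.33. With so few calls among all genes, none among 10 members sets them apart in neither fit. Each difference is between RNA in the ORC1 IP and in input, not between levels of expression. As bulk libraries, the values also do not show how many cells held an mRNA or how much each held.

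**Figure D1:**
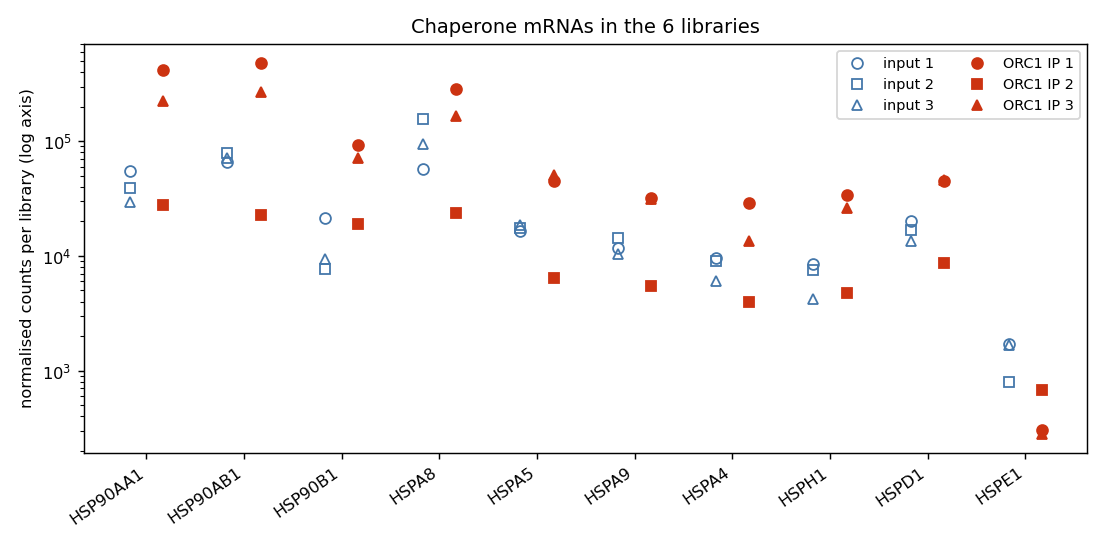
Normalised counts (log axis) of the 10 chaperone mRNAs in each library, with open blue symbols for inputs and filled red symbols for ORC1 IPs (1 circle, 2 square, 3 triangle). ORC1 IPs 1 and 3 lie above the inputs for 9 mRNAs, whereas ORC1 IP 2 lies below them for 7 of these, and HSPE1 is lower in each ORC1 IP than in any input, all on the scale of the deposited size factors.

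The 2 cytosolic HSP90 proteins are close relatives, HSP90AA1 the more stress-inducible form and HSP90AB1 the constitutive one. HSP90AA1 (ENSG00000080824, chromosome 14, 102080742 to 102139699 on GRCh38, minus strand) had 54701, 39332 and 29759 normalised counts in inputs 1 to 3 and 418536, 27873 and 223082 in ORC1 IPs 1 to 3. ORC1 IPs 1 and 3 were thus far above the inputs, and ORC1 IP 2 was below them all on this scale. As a percent of reads, ORC1 IP 2 (0.191%) was above inputs 2 and 3 (0.182% and 0.155%) and below input 1 (0.301%). The means were 41264 ± 12583 in input and 223163 ± 195331 in ORC1 IP (SD, n = 3), a ratio of 5.41 on the linear scale. On the log2 scale the difference was 1.78 ± 1.42 (SE, 95% interval -1.30 to 4.87), within the spread between libraries (limma adjusted p = 0.505). The paper counts HSP90AA1 among its high-confidence ORC1-bound RNAs, from RIP-seq with a DESeq2 cut-off and UV crosslinking together. It also reports lower activity of local origins when this RNA was depleted. The paper's RIP cut-off was a log2 fold change above 1 and a p-value under 0.05, with no adjustment named. The limma value is an unlike measure, since it takes another test, an adjusted p and no crosslinking data. Without ORC1 IP 2 it was 2.93 (limma adjusted p = 0.00277), and DESeq2 with all libraries gave 2.41 (adjusted p = 0.0058, unadjusted p = 0.000256).

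HSP90AB1 (ENSG00000096384, chromosome 6, 44246166 to 44253888, plus strand) had 65548, 79525 and 72000 normalised counts in the inputs and 485475, 22754 and 270972 in the ORC1 IPs. Its inputs lay close together, so that ORC1 IPs 1 and 3 and ORC1 IP 2 stood clear of them on opposite sides. The log2 difference was 1.00 ± 1.64 (SE, 95% interval -2.55 to 4.55, limma adjusted p = 0.775), and against the mean of the inputs ORC1 IPs 1 to 3 were at 2.75, -1.66 and 1.91. Without ORC1 IP 2 it came to 2.33 (limma adjusted p = 0.0112), without ORC1 IP 1 to 0.12 (limma adjusted p = 0.977) and without ORC1 IP 3 to 0.54 (limma adjusted p = 0.902). DESeq2 with all libraries gave 1.82 (unadjusted p = 0.00822, adjusted p = 0.0620).

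HSP90B1 (GRP94) is the HSP90 of the ER lumen, where it folds secreted and membrane proteins such as integrins and Toll-like receptors. HSP90B1 (ENSG00000166598, chromosome 12, 103930107 to 103953931, plus strand) had 21570, 7658 and 9499 normalised counts in the inputs and 92766, 19095 and 72067 in the ORC1 IPs. It was the one member for which all 3 ORC1 IPs were above the mean of the inputs on the log2 scale (3.00, 0.72 and 2.63). ORC1 IP 2 was below input 1, so the groups overlapped, whereas as a percent of reads ORC1 IP 2 (0.131%) was also above input 1 (0.119%) and the groups were apart (8.11% of all genes). The log2 difference of 2.12 ± 0.90 (SE, 95% interval 0.17 to 4.06) had an unadjusted p of 0.0353 and an adjusted p of 0.192 in limma. It was 2.81 without ORC1 IP 2 (limma adjusted p = 0.0020) and 2.23 in DESeq2 with all libraries (adjusted p = 0.00284). On the genome, 10.1% of its transcript overlaps UQCC6 on the opposite strand and 4.71% overlaps MIR3652 on its own strand, and no source used here states whether counting used strand.

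HSPA8 (HSC70), the constitutive cytosolic HSP70, had the largest SD of any member among inputs (49472 normalised counts, n = 3). HSPA8 (ENSG00000109971, chromosome 11, 123057489 to 123063230, minus strand) had 56890, 154876 and 93988 normalised counts in inputs and 284083, 23663 and 167380 in ORC1 IPs. ORC1 IP 3 exceeded input 2 by little and was below it as a percent of reads (0.624% against 0.717%), and the log2 difference was 0.15 ± 1.57 (SE, limma adjusted p = 0.969). It was the member that was not called without ORC1 IP 2 (1.22, limma adjusted p = 0.177), and its sign turned under scaling by total count (-0.07).

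HSPA5 (BiP) is the HSP70 of the ER and holds the sensors of the unfolded protein response in check. HSPA5 (ENSG00000044574, chromosome 9, 125234853 to 125241382, minus strand) had 16588, 17412 and 18434 normalised counts in inputs, and 45267, 6369 and 50752 in ORC1 IPs. The inputs differed little, and the ORC1 IPs fell on both sides of them (log2 difference 0.49 ± 0.90, SE, limma adjusted p = 0.801). Without ORC1 IP 2 it was 1.46 (limma adjusted p = 0.0248). HSPA9 (mortalin), the mitochondrial HSP70 that pulls proteins in through the inner membrane, had nearly the same profile. HSPA9 (ENSG00000113013, chromosome 5, 138553756 to 138575675, minus strand) had 11792, 14373 and 10354 normalised counts in inputs and 32114, 5471 and 31119 in ORC1 IPs, with a log2 difference of 0.55 ± 0.79 (SE, limma adjusted p = 0.739), and of 1.39 without ORC1 IP 2 (limma adjusted p = 0.0258).

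HSPA4 and HSPH1 are HSP110-type proteins, relatives of HSP70 that act as its nucleotide exchange factors. HSPA4 (ENSG00000170606, chromosome 5, 133052013 to 133106449, plus strand) had 9502, 8967 and 6105 normalised counts in inputs and 29217, 3965 and 13388 in ORC1 IPs. As a percent of reads, ORC1 IP 3 (0.0499%) was below input 1 (0.0522%). The log2 difference was 0.53 ± 0.72 (SE, limma adjusted p = 0.726), and 1.30 with an adjusted p of 0.0496 without ORC1 IP 2, the member nearest to the threshold in that fit. HSPH1 (ENSG00000120694, chromosome 13, 31134973 to 31162388, minus strand) had 8576, 7612 and 4187 normalised counts in inputs and 33774, 4710 and 26414 in ORC1 IPs. Here ORC1 IP 2 lay above input 3 and the difference was 1.31 ± 0.76 (SE, limma adjusted p = 0.347), with 1.64 in DESeq2 (adjusted p = 0.0455) and 2.20 without ORC1 IP 2 (limma adjusted p = 0.00314).

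HSPD1 (HSP60) and HSPE1 (HSP10) form the mitochondrial chaperonin and are transcribed in opposite directions from a shared promoter region. HSPD1 (ENSG00000144381, chromosome 2, 197486584 to 197516737, minus strand) had 20089, 16688 and 13530 normalised counts in inputs and 44658, 8598 and 46396 in ORC1 IPs. ORC1 IPs 1 and 3 were above all inputs and ORC1 IP 2 below (log2 difference 0.66 ± 0.85, SE, limma adjusted p = 0.705). Without ORC1 IP 2 it was 1.46 (limma adjusted p = 0.0266).

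HSPE1 (ENSG00000115541, chromosome 2, 197500140 to 197503449, plus strand) went the other way. It had 1708, 796 and 1683 normalised counts in inputs and 305, 678 and 280 in ORC1 IPs. By normalised counts every ORC1 IP was below every input, as for 13.5% of all genes, and ORC1 IP 2 was the closest to the inputs. As a percent of reads the groups overlapped, since ORC1 IP 2 (0.00464%) was above input 2 (0.00369%). The mean fell from 1396 ± 520 to 421 ± 223 (SD, n = 3), a ratio of 3.32, and the log2 difference was -1.76 ± 0.44 (SE, 95% interval -2.72 to -0.81, limma adjusted p = 0.0480). The call is at the threshold: the adjusted p was 0.0508 with the replicate block in limma, 0.0518 in edgeR, 0.00887 in DESeq2 and 0.110 with scaling by total count. It was 0.00206 without ORC1 IP 2 and 0.0679 to 0.295 when any other library was left out. HSPE1 also has the shortest transcript of the members, 557 bases, of which 34.5% is shared on the same strand with the readthrough gene HSPE1-MOB4, and 48.2% of its 50-base stretches occur in other genes.

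**Figure D2:**
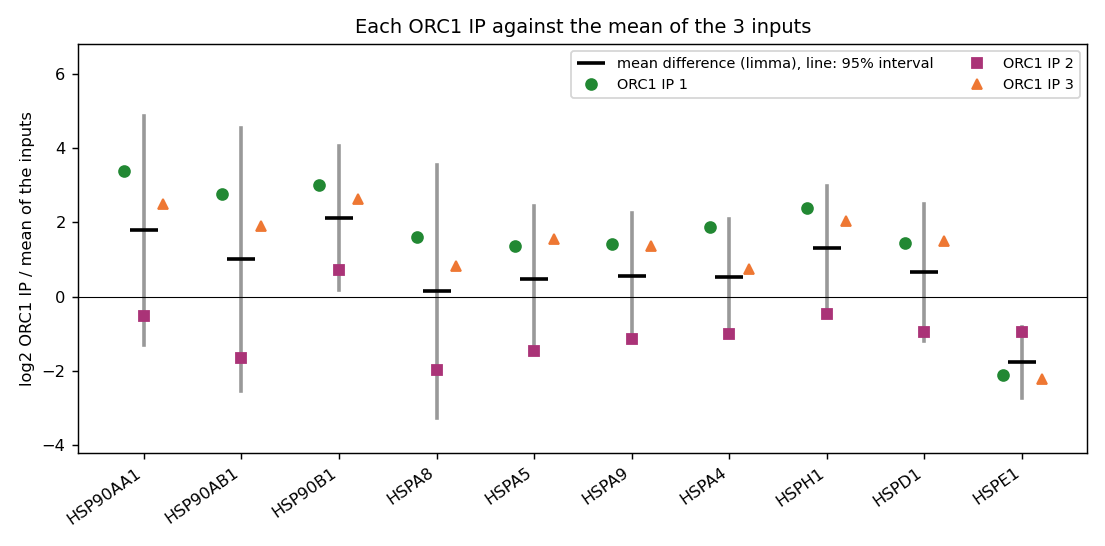
log2 difference of ORC1 IP 1 (circle), 2 (square) and 3 (triangle) from the mean of the 3 inputs for each chaperone mRNA, with the mean difference from limma (black bar) and its 95% interval (grey line). ORC1 IP 2 is negative for 9 of 10 mRNAs, HSP90B1 (0.72) being the exception, and the intervals of HSP90B1 and HSPE1 are the ones that leave out 0.

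Set per kilobase of transcript, the members were high in the nuclear inputs already. Ranked among 12537 protein-coding genes by mean normalised counts per kb, HSPA8 was number 6 in input, HSP90AB1 18, HSP90AA1 54, HSPD1 106, HSP90B1 203, HSPA5 216, HSPA9 406, HSPE1 458, HSPA4 722 and HSPH1 1017. In the ORC1 IPs, HSP90AB1 was number 1 (101657 ± 90632 normalised counts per kb, SD, n = 3), HSPA8 number 2 (69954 ± 57616) and HSP90AA1 number 3 (69134 ± 60512). HSP90B1 stood at 20, HSPD1 at 38, HSPA5 at 82, HSPA9 at 162, HSPH1 at 232, HSPA4 at 320 and HSPE1 at 1879. In input, the means of HSPA8 and HSP90AB1, of HSP90B1 and HSPA5, and of each next pair from HSPA9 to HSPE1, HSPA4 and HSPH1 were within the larger of their SDs. In the ORC1 IPs this held for all neighbours in the order. ORC1 IP 2 alone was 8906 for HSP90AB1, 10452 for HSPA8 and 8635 for HSP90AA1.

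As a share of all reads on genes, the 10 mRNAs took 1.47% (95% exact Clopper-Pearson interval 1.46 to 1.47), 1.61% (1.60 to 1.61) and 1.35% (1.34 to 1.35) in inputs 1 to 3. In ORC1 IPs 1 to 3 they took 4.86% (4.85 to 4.87), 0.844% (0.841 to 0.848) and 3.36% (3.35 to 3.37). The groups overlapped, because ORC1 IP 2 was below all inputs. The mean difference was 1.55 percentage points (exact permutation test, two-sided, p = 0.4 at n = 3, where the smallest possible p is 0.1), 2.63 points without ORC1 IP 2 and 0.628 points without ORC1 IP 1. HSP90AB1 (1.61%), HSP90AA1 (1.39%) and HSPA8 (0.941%) made up most of the share in ORC1 IP 1.

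**Figure D3:**
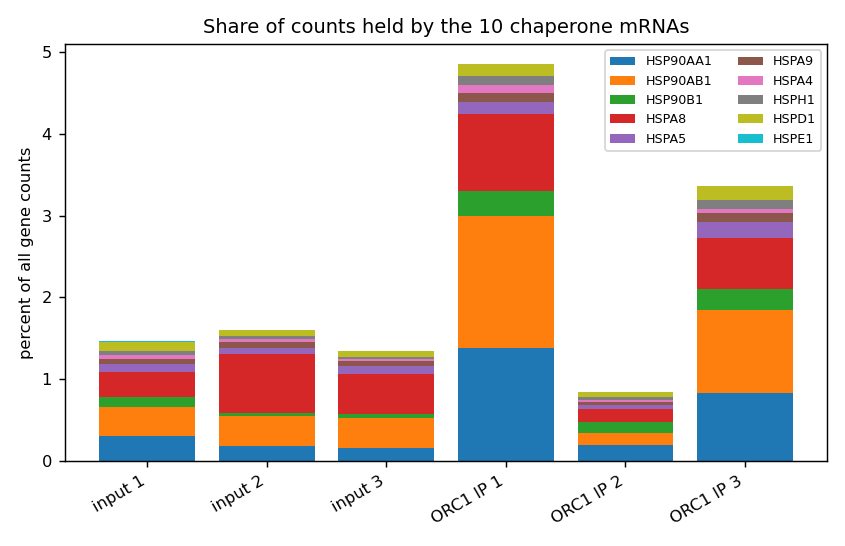
Percent of all reads on genes held by the 10 chaperone mRNAs in each library, stacked by gene. The total is 1.35 to 1.61% in inputs, 4.86% and 3.36% in ORC1 IPs 1 and 3, and 0.844% in ORC1 IP 2.

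Ratios within a library do not depend on the scaling between libraries, and 5 pairs of members were compared in this way. The log2 ratio of the ER pair HSPA5/HSP90B1 was -0.38, 1.18 and 0.96 in inputs and -1.04, -1.58 and -0.51 in ORC1 IPs. Without overlap, HSPA5 was thus lower relative to HSP90B1 in each ORC1 IP, ORC1 IP 2 included (difference -1.63, exact permutation test, two-sided, p = 0.1, adjusted over 5 pairs 0.25, n = 3). The HSP110 pair HSPH1/HSPA4 had log2 ratios of -0.15, -0.24 and -0.54 in inputs and 0.21, 0.25 and 0.98 in ORC1 IPs. These groups did not overlap either, with HSPH1 the more abundant of the pair in every ORC1 IP and the less abundant in every input (difference 0.79, exact permutation p = 0.1, adjusted 0.25, n = 3).

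The chaperonin pair HSPD1/HSPE1 had log2 ratios of 3.56, 4.39 and 3.01 in inputs and 7.19, 3.66 and 7.37 in ORC1 IPs. ORC1 IPs 1 and 3 stood far above the inputs and ORC1 IP 2 among them (difference 2.42, exact permutation p = 0.2, adjusted 0.25, n = 3). It was 3.63 without ORC1 IP 2. The cytosolic pair HSP90AA1/HSP90AB1 had -0.26, -1.02 and -1.27 in inputs and -0.21, 0.29 and -0.28 in ORC1 IPs (difference 0.78, exact permutation p = 0.2, adjusted 0.25, n = 3), where ORC1 IP 3 lay below input 1 and the groups were otherwise apart. For HSPA8/HSPA5, with 1.78, 3.15 and 2.35 in inputs and 2.65, 1.89 and 1.72 in ORC1 IPs, the groups overlapped throughout (difference -0.34, exact permutation p = 0.6, adjusted 0.6, n = 3). Leaving out ORC1 IP 2, the differences of the other pairs were -1.36 for HSPA5/HSP90B1, 0.90 for HSPH1/HSPA4, 0.60 for HSP90AA1/HSP90AB1 and -0.24 for HSPA8/HSPA5. No pair could pass, since 3 against 3 allows no p under 0.1.

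**Figure D4:**
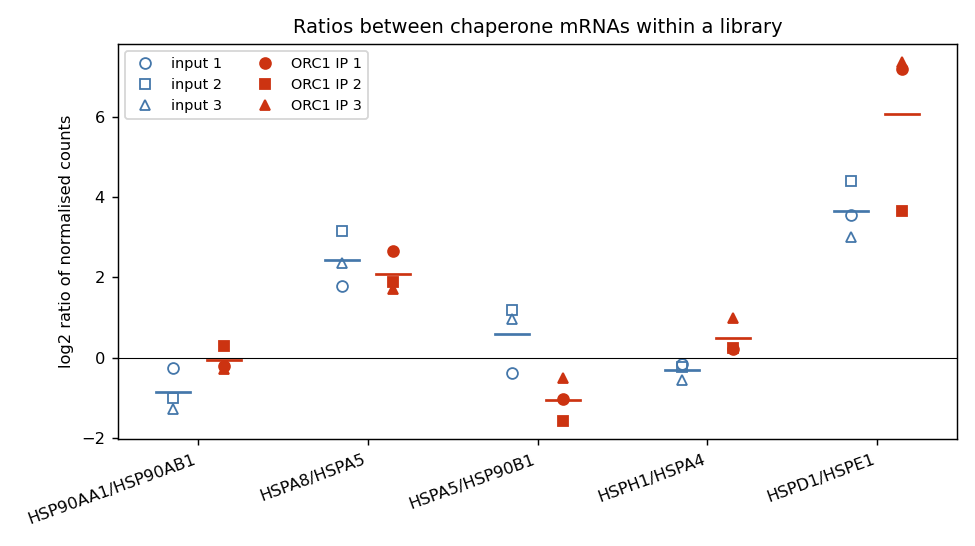
log2 ratio of normalised counts of 5 pairs of chaperone mRNAs in each library, with inputs in open blue symbols, ORC1 IPs in filled red symbols and group means as bars. The groups are apart for HSPA5/HSP90B1 and HSPH1/HSPA4, and ORC1 IP 2 lies among the inputs for HSPD1/HSPE1.

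The 5′ ends of the chaperonin pair are shown because these neighbours differed in direction, together with the HSP90AA1 promoter. All are 250 bases before to 50 after the RefSeq start (GRCh38.p14), read along the strand of the gene, with matches to the heat shock element in capitals.
HSPD1, chr2:197499791-197500090, minus strand: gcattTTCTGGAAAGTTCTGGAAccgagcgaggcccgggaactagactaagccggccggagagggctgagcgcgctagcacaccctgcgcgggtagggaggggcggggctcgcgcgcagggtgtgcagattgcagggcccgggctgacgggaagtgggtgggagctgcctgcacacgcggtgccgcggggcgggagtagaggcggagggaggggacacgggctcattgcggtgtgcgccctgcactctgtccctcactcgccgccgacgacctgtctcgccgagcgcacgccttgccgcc
HSPE1, chr2:197500129-197500428, plus strand: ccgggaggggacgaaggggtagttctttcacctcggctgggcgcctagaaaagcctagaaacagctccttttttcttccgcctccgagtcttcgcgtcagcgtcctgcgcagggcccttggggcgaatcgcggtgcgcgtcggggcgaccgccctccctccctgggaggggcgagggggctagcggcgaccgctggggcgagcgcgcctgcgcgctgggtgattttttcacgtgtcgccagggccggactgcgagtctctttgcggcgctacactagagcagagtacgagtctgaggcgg
HSP90AA1, chr14:102086995-102087294, minus strand: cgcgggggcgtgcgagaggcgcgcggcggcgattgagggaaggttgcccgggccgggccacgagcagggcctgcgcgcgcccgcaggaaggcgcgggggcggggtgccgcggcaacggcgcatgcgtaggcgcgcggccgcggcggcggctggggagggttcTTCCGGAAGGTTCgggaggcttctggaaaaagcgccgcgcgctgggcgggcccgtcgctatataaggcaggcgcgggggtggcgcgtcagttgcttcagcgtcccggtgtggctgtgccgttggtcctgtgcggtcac
The element searched was GAANNTTCNNGAA or TTCNNGAANNTTC, which covers both strands, and overlapping matches were merged in the print. Of 35116 RefSeq promoters, 172 (0.490%) held it. Of the 14 promoters listed for the members, 4 did, 1 each for HSP90AA1, HSP90AB1, HSPA8 and HSPD1. In the ORC1 IP these 4 mRNAs had log2 differences of 1.78, 1.00, 0.15 and 0.66, none of them called with all libraries. The match counted for HSPD1 lies at the upstream end of its window, between the printed starts of HSPD1 and HSPE1. The printed HSPE1 window begins beyond this match and does not cover it. The lack of a match in that window therefore does not show that the promoter region shared with HSPD1 lacks the element. A match is a description of these letters and not a measured site.

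Levels over the 6 libraries went together among the 9 members other than HSPE1. Their 36 pairs had Pearson correlations of log2 values of 0.423 to 0.986 (median 0.916), and the 9 pairs with HSPE1 had -0.814 to -0.512. These values are descriptions over 6 libraries that also differ in depth and composition. The genes nearest to the mean profile of the members, of 4583 with a mean of at least 1000, were TOMM70A (0.996), ZC3H4 (0.996), VPS53 (0.996), HNRNPU (0.994) and RRBP1 (0.994), where the value is Pearson's r over the 6 libraries. TOMM70A, the outer membrane receptor that takes precursors from HSP90 and HSP70, had 2825, 2355 and 2171 normalised counts in inputs and 5713, 1468 and 4994 in ORC1 IPs. HNRNPU, an abundant nuclear RNA-binding protein, had 18865, 17005 and 13006 in inputs and 83319, 8191 and 46677 in ORC1 IPs. Both had the arrangement of HSP90AB1, with ORC1 IP 2 below the inputs, which follows from picking them by likeness to this profile.

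Classes of longer transcripts had higher median differences. The median log2 difference of tested protein-coding genes was -0.65 for transcripts of up to 1000 bases (679 genes), -0.13 for 2001 to 3000 bases (2569 genes) and 0.50 above 6000 bases (2329 genes). HSPE1 (557 bases, -1.76) lay below the median of its class. HSP90B1 (2782 bases, 2.12), HSP90AB1 (2555 bases, 1.00), HSPD1 (2245 bases, 0.66) and HSPA8 (2264 bases, 0.15) lay above theirs, and so did HSP90AA1 (3228 bases, 1.78). HSPH1, with 5244 bases, was at 1.31, while HSPA4, HSPA5 and HSPA9 were between 0.49 and 0.55. In ORC1 IP 2 against the mean of the inputs, the classes that hold members had medians of -0.42 to 0.08. There HSP90B1 (0.72) lay above its class, and the other members, from -1.99 (HSPA8) to -0.46 (HSPH1), lay below theirs.

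**Figure D5:**
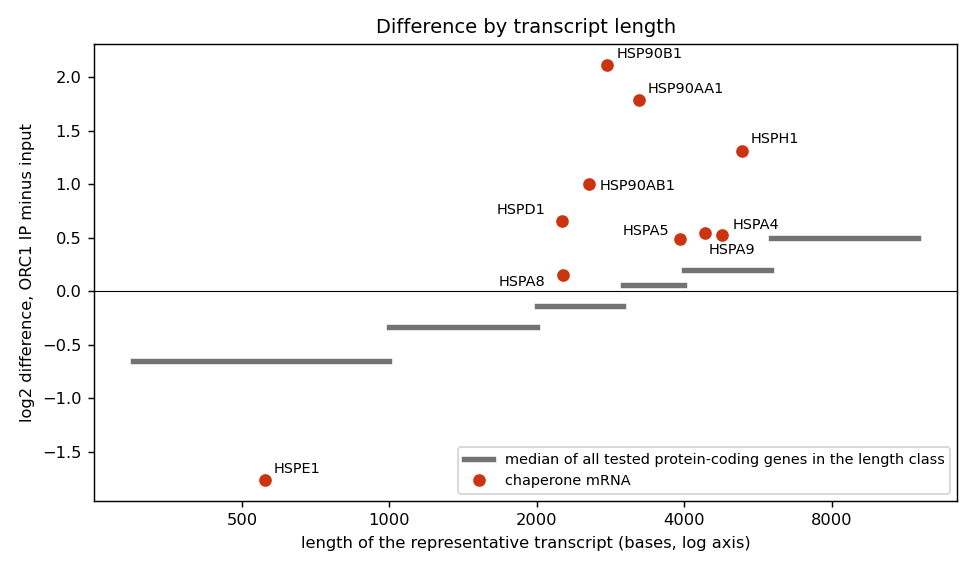
log2 difference between ORC1 IP and input of the chaperone mRNAs (red points) against the length of the representative transcript (log axis), with the median of all tested protein-coding genes in each length class (grey bars). HSPE1, at 557 bases, lies below the median of its class of -0.65, and the other 9 lie above the medians of theirs. These differences pool the ORC1 IPs, and in ORC1 IP 2 alone HSP90B1 is the only member above its class median.

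GAA content went with the difference too. Genes with at most 3 GAA triplets in their best stretch had a median log2 difference of -0.36 (2725 genes), those with 4 to 5 -0.09 (5532), 6 to 7 0.40 (3376), 8 to 9 1.09 (777), and 10 or more 1.46 (127 genes). In the last class, 17.3% were called higher, against 0.404% of the first. Among genes with coding sequences of 1500 to 3000 bases, which hold 9 of the members, the medians from the first class to the last were -0.11, 0.06, 0.40, 0.98 and 1.32. Members with 10 or 11 triplets, HSP90AA1 and HSP90B1, had 1.78 and 2.12, those with 8, HSP90AB1 and HSPA9, had 1.00 and 0.55, and those with 6 or 7 ranged from 0.15 to 1.31. In ORC1 IP 2 against the mean of the inputs the class medians also went up, from -0.19 to 0.72, and there HSP90AA1 was at -0.52 and HSP90B1 at 0.72. HSP90AB1 and HSPA9 were at -1.66 and -1.14 in that library, below their class median of 0.46. Members with 6 or 7 triplets ran from -1.99 to -0.46, below their class median of 0.12, and HSPE1 was at -0.96. The classes are a description across genes, which are not replicates.

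Many of these genes have processed pseudogenes that can take up their reads. Of 19 pseudogene copies among the genes tested, picked by symbol after values were seen, none was called in limma (3.69% of all genes). Of these copies, 17 had the sign of the parent gene. Over all genes, 8375 differences were positive and 8138 negative. Copies and parents can share reads, so this likeness of sign is not independent. HSP90AB3P, which shares 19.3% of its 50-base stretches with HSP90AB1, had 5536, 7070 and 6303 normalised counts in inputs and 41347, 1826 and 22945 in ORC1 IPs, the arrangement of its parent at a lower level. HSPE1P2 and HSPE1P3 had log2 differences of -1.92 and -1.41, next to -1.76 for HSPE1. Of the members themselves, HSPD1 shared 27.1% of its stretches with other genes, HSP90AB1 19.7%, HSP90AA1 19.1% and HSPA8 16.8%, and HSPA4 and HSPH1 shared 0%. No source used here states how reads matching several genes were counted, so single values of members with such copies are uncertain.

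With all 6 libraries, the rest of the chaperone system had a median difference near that of all genes. Against the mean of the inputs, its median was 0.20, -0.46 and 0.11 in ORC1 IPs 1, 2 and 3. For all genes these medians were -0.01, -0.02 and 0.07. The median over all libraries thus pools ORC1 IPs that differ in sign. Of 117 other chaperone genes tested, from 9 lists, 4 were called higher and none lower in limma, at 2.28% and 1.42% of all genes. At an unadjusted p under 0.05 there were 14 (21.6% of all genes), DESeq2 called 12 higher and 1 lower (7.67% and 4.35%), and their median was -0.01. Of 42 J-domain proteins, which hand clients to HSP70, 3 were called higher. DNAJC21, a ribosome biogenesis factor, had 925, 370 and 331 normalised counts in inputs and 4140, 1742 and 1804 in ORC1 IPs (log2 difference 2.28 ± 0.48, SE, limma adjusted p = 0.0268). DNAJC2, which acts at the ribosome, had 666, 589 and 234 against 6798, 1496 and 1538 (2.47 ± 0.59, SE, limma adjusted p = 0.0405). In DNAJC25 the counts were 180, 70.9 and 52.7 against 592, 475 and 370 (2.41 ± 0.47, SE, limma adjusted p = 0.0213).

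Of the 6 prefoldin subunits, which pass nascent actin and tubulin to the CCT chaperonin, PFDN4 was called higher. It had 477, 97.7 and 192 normalised counts in inputs and 1762, 547 and 996 in ORC1 IPs (2.24 ± 0.56, SE, limma adjusted p = 0.0485). In all 4 of these genes every ORC1 IP, ORC1 IP 2 included, was above every input (12.7% of all genes), also as a percent of reads (8.11%). Their calls were lost with scaling by total count (limma adjusted p 0.0605 to 0.0978), in limma without the trend and without input 2, input 3 or ORC1 IP 3. Without ORC1 IP 1, those of DNAJC21, DNAJC2 and PFDN4 were lost (limma adjusted p 0.0518, 0.0672 and 0.0981), that of DNAJC2 was also lost without input 1 (limma adjusted p = 0.0552), and that of PFDN4 with a mean filter of 50 (limma adjusted p = 0.0528) and in edgeR (adjusted p = 0.0521). All 4 calls held without ORC1 IP 2 and with the replicate block (limma adjusted p 0.00637 to 0.00778).

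In the other 7 lists, of 69 genes tested, no gene was called in limma (4 at an unadjusted p under 0.05, beside 21.6% of all genes) or edgeR (5, beside 23.2%), and DESeq2 called HSF4 and UGGT2 higher and SDF2L1 lower. Medians were 0.08 for 11 further HSP90 and HSP70 family genes, from HSPA13 (-0.74) to HSPA1L (1.09), and -0.28 for 12 HSP70 exchange factors and regulators, from HSPBP1 (-1.14) to BAG3 (0.38). The 16 HSP90 co-chaperones had a median of 0.07, from FKBP8 (-0.72) to FKBP5 (0.94). All 8 subunits of the cytosolic chaperonin CCT lay between -0.88 (CCT4) and 0.15 (CCT8), with a median of -0.25. Against the mean of the inputs, the CCT median was 0.04, -1.58 and 0.43 in ORC1 IPs 1, 2 and 3, so its negative value rests on ORC1 IP 2. Without ORC1 IP 2, CCT4 was at -0.29 (limma adjusted p = 0.662) and CCT8 at 0.91 (limma adjusted p = 0.122). The 3 tested genes that were listed as small heat shock proteins ran from -0.77 (HSPB1) to -0.38 (HSPB11). The 16 ER folding genes had a median of 0.02, and at their ends were SDF2L1 (-1.19, limma adjusted p = 0.0775) and UGGT2 (1.501, limma adjusted p = 0.0553). Among the 3 heat shock transcription factors, HSF1 had -0.79 and HSF4 had 1.34, neither of them called in limma. Against the mean of the inputs, medians in ORC1 IPs 1, 2 and 3 were 0.44, -0.72 and 0.66 for the further family genes. They were 0.62, -0.82 and 0.15 for co-chaperones and 0.20, -0.91 and 0.34 for ER folding genes. Exchange factors (0.04, -0.42 and -0.27), genes listed as small heat shock proteins (-0.93, -0.62 and -0.25) and heat shock factors (-0.12, 0.22 and 0.19) did not have these signs.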

How the data were processed

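RIP-seq was measured in 3 input and 3 ORC1 IP libraries of HCT116 nuclei. According to the methods, the authors used Trimmomatic for trimming, STAR for alignment to hg19 (Ensembl genes, GL contigs removed), featureCounts for counting and DESeq2 for their own test. The deposited signal per library is a gene count divided by a size factor. All values were whole multiples of 1 read within 0.001 (100%), so whole reads were recovered. The deposited table of the authors also holds log2 fold changes, a test score and p-values, which were not used.

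Differences of log2(value + 1) were tested with limma 3.58.1 (intensity trend) for 16513 genes (mean of 10 or more), with Benjamini-Hochberg adjustment over all of them, in R 4.3.3. edgeR 4.0.16 and DESeq2 1.42.0 were run on the recovered reads. Single values per library were compared by exact permutation. Reads on genes per library (13703033 to 36008733) limit counting error, not the spread between libraries. The tests were tested on simulated data. The pairing comes from the labels, which number the RIP replicates. When each library's deviation from its group mean was correlated between an input and the IP of its number, r was -0.32, -0.24 and 0.22 for replicates 1, 2 and 3, and 0.50 between input 2 and ORC1 IP 1, so the numbers of inputs 1 and 2 are in doubt, and each ORC1 IP was set against the mean of the inputs. A percent of reads is a count over all reads on genes of the library.

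The members and the gene lists were chosen with earlier results of these data known. All members were named, and of the other lists each called gene or, with none, the genes at both ends. Transcripts, exons and coordinates came from GENCODE v44 on GRCh38, matched by Ensembl identifier (97.3% of tested genes), and promoters from RefSeq. No library repeated another of its group (chi-square per degree of freedom of 49.5 or more in each pair).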

Additional observations from a re-analysis of the deposited data

How the results depend on the processing

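With 1 of 10 members called, the count was 0 with a mean filter of 50, scaling by total count, TMM scaling, limma without the trend, edgeR (3 members at an unadjusted p under 0.05) and the replicate block in limma, and 4 in DESeq2 (12% of all genes called). These were HSP90AA1, HSP90B1 and HSPH1 higher and HSPE1 lower. It ranged from 0 to 9 when 1 library was left out, with 9 without ORC1 IP 2 and 0 without any other. For all genes the count of 610 became 183 with scaling by total count (87 higher, 96 lower; median of all genes -0.19), 239 without the trend and 1984 in DESeq2, and 29 (without input 3) to 3018 (without ORC1 IP 2) with 1 library left out. It was 87 without input 2, 315 without ORC1 IP 1 and 47 without ORC1 IP 3. For the other chaperone genes the count of 4 became 0 with scaling by total count and without the trend and 13 in DESeq2, and 0 (without input 2, input 3 or ORC1 IP 3) to 22 (without ORC1 IP 2) with 1 library left out, and 1 without ORC1 IP 1. The median log2 difference of the members ranged from 0.12 (without ORC1 IP 1) to 1.46 (without ORC1 IP 2). Directions turned for HSPA8 with scaling by total count (-0.0675) and without input 1, ORC1 IP 1 or ORC1 IP 3 (range with 1 library left out -0.58 to 1.22), for HSPA4 without ORC1 IP 1 (range -0.14 to 1.30), for HSPA5 without ORC1 IP 3 (range -0.0403 to 1.46), and for the HSPA8/HSPA5 ratio without input 2 (range -0.66 to 0.0242). None of the turned values was called. The cause of these changes was not tested. The replicate block gave 624 genes in limma and changed no call of a member other than that of HSPE1 (adjusted p = 0.0508; 0.0433 in edgeR with the block). The pair ratios had exact permutation p = 0.25 to 0.75 with the block, where 3 pairs allow no p under 0.25. The members had 280 or more normalised counts in every library.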

Other observations

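Some chaperone genes outside the naming rule were looked at after their values were seen. HSPA1B, the stress-inducible cytosolic HSP70, had 3447, 5754 and 4118 normalised counts in inputs and 11785, 1547 and 12784 in ORC1 IPs, the arrangement of HSPA5 with ORC1 IP 2 lowest (log2 difference 0.50 ± 0.72, SE). HSPA1A, its near-identical copy, was listed at 73.7 to 106 in inputs and 37.7 to 274 in ORC1 IPs, so how reads were divided between both genes is uncertain. STIP1 (HOP), which links HSP70 to HSP90, had 9777, 13164 and 10743 normalised counts in inputs and 53402, 4742 and 28052 in ORC1 IPs (log2 difference 0.79 ± 0.86, SE). PTGES3 (p23), the co-chaperone that closes the HSP90 cycle, had 8132, 7730 and 7393 in inputs and 7165, 4015 and 6783 in ORC1 IPs (-0.42 ± 0.50, SE). All its ORC1 IPs were lower than any input, as for 13.5% of all genes.

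In the ER, the lectin chaperone CANX had 24705, 17575 and 18179 normalised counts in inputs and 45007, 11692 and 33858 in ORC1 IPs. Its soluble partner CALR had 18385, 17722 and 24814 in inputs and 35487, 5764 and 18976 in ORC1 IPs. TRAP1, the mitochondrial HSP90, had 3449, 7489 and 6692 in inputs and 6289, 1259 and 4792 in ORC1 IPs (-0.73 ± 0.61, SE). None of these genes was called in limma.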
